A study of Mus musculus with 16 samples.

Results

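The genes described here are the receptors for BAFF and CD40 ligand on B cells and the noncanonical NF-kB pathway that they switch on. They are Tnfrsf13b, Tnfrsf13c, Tnfrsf17, Cd40, Traf2, Traf3, Map3k14, Nfkb2, Relb and Birc3, chosen by symbol, 10 of the 27928 genes in the table. RNA was sequenced from B cells of the follicular (FO) and the marginal zone (MZ) subset sorted from the spleens of C57BL/6 mice, to ask how loss of the transcription factor TFII-I (gene Gtf2i) alters each subset. The WT mice carried no Cre. The cKO mice carried floxed Gtf2i alleles (Gtf2i fl/fl) and a Cre that directs the deletion to the B lineage. FO B cells were gated as low in CD21 and high in CD23, and MZ B cells as high in CD21 and low in CD23. There were 2 libraries in each of the 4 groups (WT FO, WT MZ, cKO FO and cKO MZ), and because nothing in the labels ties a library to a mouse, the spread between libraries may be partly technical.

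BAFF, a cytokine made mainly by stromal and myeloid cells, keeps mature B cells alive through BAFF receptor, and CD40 receives the signal of helper T cells. In a resting B cell TRAF3 holds the kinase NIK in a complex with TRAF2 and the cIAP ubiquitin ligases, and NIK is degraded as fast as it is made. When a receptor is engaged the complex draws TRAF3 away, NIK accumulates, p100 is cut to p52, and p52 enters the nucleus with RelB. Much of this control acts on protein, which RNA levels do not report, and MZ B cells are a subset whose upkeep depends on BAFF.

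The values are normalized counts, whole reads divided by the size factor of the library. The libraries held 21546552 to 25083552 reads on genes, and the lowest library was cKO FO replicate 1. Differences are given on the scale of log2(normalized count + 1), which makes those of low genes smaller, from a single limma fit of the 8 libraries over the 14761 genes whose normalized count averaged 10 or more. A gene counted as called when its p, adjusted by Benjamini-Hochberg over all genes tested, did not pass 0.05 and its change reached 1.5-fold, and an interaction by the adjusted p alone. With 2 libraries against 2, exact permutation of the labels of any gene gives no p below 0.333, so each p here leans on the spread that limma pools over genes.

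The labels were checked against markers. The summed level of 5 MZ markers (Cr2, Cd1d1, Cd9, S1pr3 and Dtx1) was 29480 to 31855 normalized counts in the FO libraries and 123932 to 143419 in the MZ libraries. The 5 T cell markers other than Lck did not pass 19.0 normalized counts in a library. Lck itself was 692 to 1226, lower in both cKO libraries than in both WT libraries of each subset and not called, and its part in the comparisons of cKO with WT was not tested. Granulocyte markers summed to between 16.2 and 79.4 normalized counts in 7 libraries and to 1491 in cKO MZ replicate 1. Dendritic cell markers summed to 190 to 265 in WT FO and 307 to 448 in WT MZ. In cKO the sums were 213 to 237 in FO and 437 to 507 in MZ. Macrophage and monocyte markers summed to 405 to 1006 in WT FO and 298 to 1248 in WT MZ. In cKO they came to 408 to 683 in FO and 643 to 1256 in MZ. The part of these markers in the comparisons of FO with MZ was not tested. Gtf2i was 1992 to 2864 normalized counts in WT and 1523 to 1889 in cKO. Xist was 25929.5 to 47002 normalized counts in WT and 14748, 67.4, 89.7 and 21.7 in the cKO libraries, while the Y-linked Ddx3y did not pass 6.34 in WT and was 2682 to 5514 in cKO. In cKO FO replicate 1 both were high, with Xist at 14748 and Ddx3y at 2682. Sex-linked RNA thus also differed between the cKO FO and cKO MZ libraries, and its part in that comparison was not tested. Because these transcripts split WT from cKO, genotype, sex and the presence of Cre can not be told apart in any comparison of cKO with WT. In bulk RNA, a smaller share of cells that express a gene and less RNA in each cell cannot be told apart either.

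Levels of different genes were compared per kilobase of merged exons. RNA of all the genes was abundant in the 4 groups except for Tnfrsf17, which encodes BCMA, the receptor of plasma cells. Tnfrsf13c, which encodes BAFF receptor, stood first in every group, with a mean of 4332 normalized counts per kilobase for WT FO, 3265 for WT MZ, 3463 for cKO FO and 2208 for cKO MZ, and its libraries did not overlap those of the gene in second place. Second in FO came Nfkb2 (2078 per kilobase in WT) and Birc3 (2148 in cKO), whose libraries overlapped each other in both genotypes. Second in MZ came Tnfrsf13b, which encodes TACI, with 2093 per kilobase in WT and 1991 in cKO, and in WT its libraries overlapped those of Nfkb2. Cd40, Traf3 and Relb followed. The libraries of Cd40 and Traf3 overlapped in FO and not in MZ, and those of Traf3 and Relb overlapped in 3 of the 4 groups. Map3k14, which encodes NIK, and Traf2 were lowest of the 9 with a mean over 400 per kilobase, at 493 and 471 in WT FO, where their libraries overlapped.

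**Figure D1:**
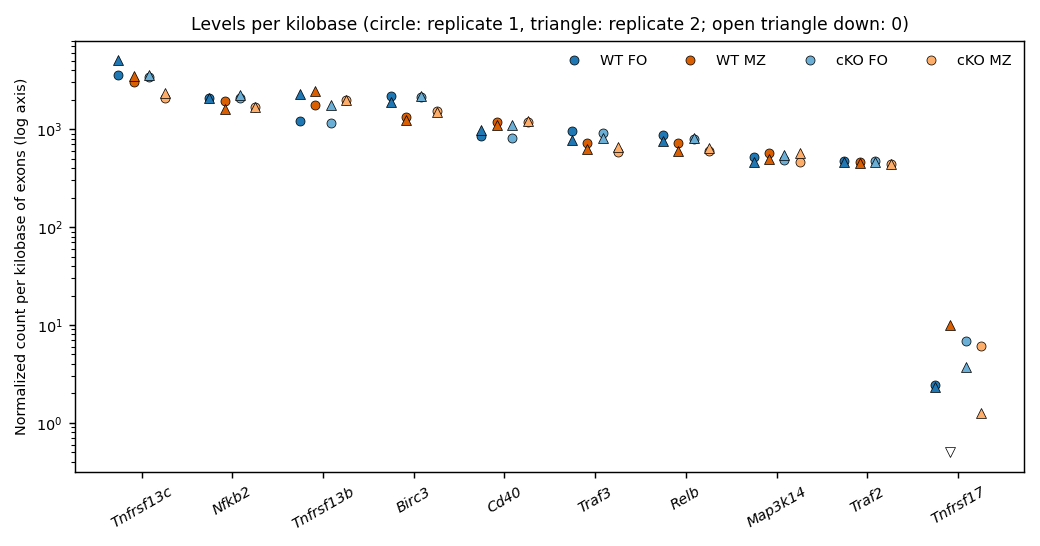
Normalized counts per kilobase of merged exons (log axis) for the 10 genes, ordered by their mean over 8 libraries, with a point for each library coloured by group. Tnfrsf13c is first at a mean of 4332 in WT FO, and Tnfrsf17 lies near the bottom at 10.0 or less, with WT MZ replicate 1 at 0.

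Tnfrsf17 (ENSMUSG00000022496.5, chromosome 16 from 11313812 to 11320074 of GRCm38) was not tested, since it fell under the filter. Its reads were 2 and 2 for WT FO, 0 and 9 for WT MZ, 5 and 3 for cKO FO and 5 and 1 for cKO MZ. No difference was detectable at this depth.

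Tnfrsf13c (ENSMUSG00000068105.11, chromosome 15 from 82221743 to 82224369, minus strand) gave normalized counts of 7403 and 10342 for WT FO, 6199.6 and 7174 for WT MZ, 6911 and 7272 for cKO FO and 4253 and 4791 for cKO MZ. Both FO libraries lay above both MZ libraries in each genotype. It was higher in FO by 0.65 on the log2 scale in cKO (standard error 0.16, 1.57-fold, limma adjusted p = 0.0265), which passed the call, and by 0.39 in WT (standard error 0.16, 1.31-fold, limma adjusted p = 0.144), which did not. The call in cKO was lost when any of the 4 cKO libraries was left out (log2 differences 0.57 to 0.74, limma adjusted p = 0.0763 to 0.167) and after quantile normalization (0.51, limma adjusted p = 0.0823). Without WT FO replicate 1 the WT difference was 0.63 (limma adjusted p = 0.0303) and was called. The genotypes were not shown to differ in this step, with an interaction of 0.26 (95% interval -0.26 to 0.78).

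Tnfrsf13b (ENSMUSG00000010142.12, chromosome 11 from 61126755 to 61149372) encodes TACI, a second receptor for BAFF, which also binds APRIL. It gave normalized counts of 3439.9 and 6456 for WT FO, 4972 and 6901 for WT MZ, 3293 and 5032 for cKO FO and 5619 and 5674 for cKO MZ. The groups overlapped in WT, and in cKO both FO libraries lay below both MZ libraries. On the log2 scale FO minus MZ came to -0.31 in WT (standard error 0.31, limma adjusted p = 0.562), with -0.47 in cKO (limma adjusted p = 0.333). Its standard error was the largest of the 9 genes tested, so a difference of 1.5-fold lies within the 95% interval in both genotypes.

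Cd40 (ENSMUSG00000017652.16, chromosome 2 from 165055627 to 165072948) gave normalized counts of 2915 and 3352 for WT FO, 4075 and 3772 for WT MZ, 2789 and 3735 for cKO FO and 4043 and 4144 for cKO MZ. Each MZ library lay above both FO libraries of its genotype. On the log2 scale FO minus MZ came to -0.33 in WT (standard error 0.14, limma adjusted p = 0.169), with -0.34 in cKO (limma adjusted p = 0.136), and over both genotypes it was -0.33 (1.26-fold, limma adjusted p = 0.036), under the fold of the call.

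Traf2 (ENSMUSG00000026942.13, chromosome 2 from 25517982 to 25546940, minus strand), the bridge between TRAF3 and the cIAP ligases, was the steadiest of the 9 genes, with normalized counts of 2426 and 2378 for WT FO, 2340.4 and 2283 for WT MZ, 2401 and 2372 for cKO FO and 2241 and 2257 for cKO MZ. Both FO libraries lay above both MZ libraries in each genotype, by a small margin. FO minus MZ on the log2 scale came to 0.055 in WT (95% interval -0.12 to 0.23) and 0.086 in cKO (95% interval -0.086 to 0.26), so that neither interval reaches 1.5-fold. Traf3 (ENSMUSG00000021277.16, chromosome 12 from 111166370 to 111267153), which recruits NIK for degradation, gave normalized counts of 6969.6 and 5653 for WT FO, 5329 and 4592 for WT MZ, 6710.2 and 5988 for cKO FO and 4312 and 4813 for cKO MZ. Its FO libraries lay above its MZ libraries in both genotypes. On the log2 scale FO exceeded MZ by 0.34 in WT (standard error 0.13, limma adjusted p = 0.124) and 0.48 in cKO (1.39-fold, limma adjusted p = 0.041), where it passed the adjusted p but not the fold.

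Map3k14 (ENSMUSG00000020941.7, chromosome 11 from 103219762 to 103267472, minus strand), the kinase NIK on which the pathway turns, gave normalized counts of 3413 and 3046 for WT FO, 3779 and 3249 for WT MZ, 3168 and 3596 for cKO FO and 3039 and 3748 for cKO MZ. The groups overlapped in both genotypes. FO minus MZ on the log2 scale came to -0.12 in WT (95% interval -0.43 to 0.19) and 5.8e-05 in cKO (95% interval -0.31 to 0.31). It shares 135 exon bases with 1700028N14Rik on the same strand, which did not pass 12.0 normalized counts in a library.

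Both subunits of the pathway had higher means in FO, and neither was called. Nfkb2 (ENSMUSG00000025225.15, chromosome 19 from 46304320 to 46312385), which encodes p100, gave normalized counts of 9574 and 9480.4 for WT FO, 8814.5 and 7308.5 for WT MZ, 9512 and 10142 for cKO FO and 7679 and 7816 for cKO MZ. Relb (ENSMUSG00000002983.17, chromosome 7 from 19606217 to 19629438, minus strand), the partner of p52, gave normalized counts of 3370.1 and 2944 for WT FO, 2806 and 2353 for WT MZ, 3053 and 3131 for cKO FO and 2305 and 2496 for cKO MZ. For each gene both FO libraries lay above both MZ libraries in each genotype. The log2 difference of Nfkb2 was 0.25 in WT (limma adjusted p = 0.153) and reached 0.34 in cKO (limma adjusted p = 0.0544), and that of Relb was 0.29 in WT and 0.37 in cKO (limma adjusted p = 0.125 and 0.0593). Nfkb2 shares 299 exon bases, 6.52% of its merged exons, with Psd on the opposite strand (1265 to 1912 normalized counts) and 531 with AC114539.1 (285 to 375 normalized counts), and strand was not stated for the counting, so a part of these reads is uncertain. Psd was also higher in FO, at 1876 and 1912 for WT FO and 1592 and 1362 for WT MZ. In cKO it was 1864 and 1725 for FO and 1265 and 1302 for MZ. Its part in the difference of Nfkb2 was not tested.

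Nfkb2 is a known target of NF-kB itself. The kappaB consensus was searched on both strands in the RefSeq promoter windows (GRCm38.p6, 250 bases before to 50 after each start), where 8.46% of 32851 windows held a match. Windows were found for 8 of the 10 genes and not for Cd40 and Relb. All 3 windows of Nfkb2 and the window of Traf3 held a match, and those of Tnfrsf13b, Tnfrsf13c, Tnfrsf17, Traf2, Map3k14 and Birc3 did not. A match is a description of letters, not a site in use, and windows 2 and 3 of Nfkb2 overlap and share a match. The last 100 bases before the start, on the strand of the gene and with matches in capitals, are shown for both genes with a match and for both genes called between FO and MZ, and 250 bases are shown for the third Nfkb2 window, whose match lies far from its start.
Nfkb2 window 1, chr19:46304637-46304736, plus strand: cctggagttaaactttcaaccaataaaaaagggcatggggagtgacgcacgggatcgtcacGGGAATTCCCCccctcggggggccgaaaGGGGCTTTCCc
Nfkb2 window 3, chr19:46305680-46305929, plus strand: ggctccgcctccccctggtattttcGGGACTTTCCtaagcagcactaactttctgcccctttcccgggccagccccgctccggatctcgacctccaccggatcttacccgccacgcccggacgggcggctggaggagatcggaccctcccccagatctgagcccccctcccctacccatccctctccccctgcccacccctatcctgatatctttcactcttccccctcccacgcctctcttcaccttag
Traf3, chr12:111166270-111166369, plus strand: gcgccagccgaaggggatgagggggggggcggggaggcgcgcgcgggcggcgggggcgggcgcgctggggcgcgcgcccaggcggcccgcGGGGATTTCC
Birc3, chr9:7873171-7873270, minus strand: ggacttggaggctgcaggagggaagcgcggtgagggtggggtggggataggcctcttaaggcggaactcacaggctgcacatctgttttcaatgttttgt
Tnfrsf13c, chr15:82224381-82224480, minus strand: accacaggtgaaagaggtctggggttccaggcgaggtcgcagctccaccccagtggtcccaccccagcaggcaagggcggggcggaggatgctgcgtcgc
In Nfkb2 window 1 the capitals hold overlapping matches on both strands that begin 39 and 38 bases before the start, and a further match 11 bases before it. The match of Traf3 ends at the base before its start.

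Birc3 (ENSMUSG00000032000.17, chromosome 9 from 7848699 to 7873186, minus strand) encodes cIAP2, a ubiquitin ligase of the TRAF complex and itself a known target gene of NF-kB. It gave normalized counts of 10864 and 9400.5 for WT FO, 6655 and 6277 for WT MZ, 10667 and 10851 for cKO FO and 7667 and 7443 for cKO MZ. The FO libraries lay well above the MZ libraries in both genotypes. It was higher in FO by 0.64 on the log2 scale in WT (standard error 0.093, 1.56-fold, limma adjusted p = 0.0036) and was called. In cKO the log2 difference was 0.51 (1.42-fold, limma adjusted p = 0.0086), past the adjusted p and under the fold, and the interaction was -0.13 (95% interval -0.44 to 0.17). The value in WT lies close to the fold of the call, and it fell under it without WT FO replicate 1 (0.54, limma adjusted p = 0.0206) and after quantile normalization (0.53, limma adjusted p = 0.00675).

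**Figure D2:**
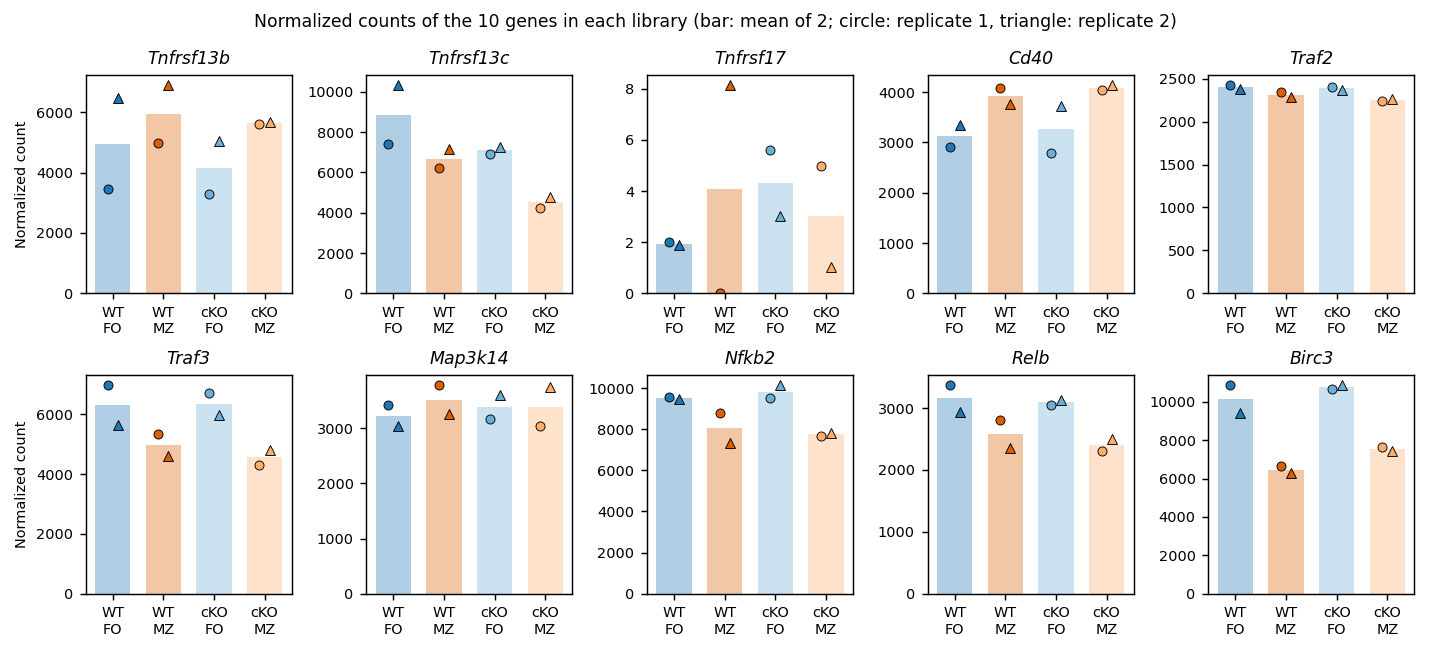
Normalized counts of the 10 genes in each of the 8 libraries, with bars at the mean of 2 libraries from an axis that starts at 0, circles for replicate 1 and triangles for replicate 2. Birc3, Tnfrsf13c, Traf2, Traf3, Nfkb2 and Relb have both FO libraries above both MZ libraries in each genotype, Cd40 has the reverse, and the circle and triangle of Tnfrsf13b in WT FO lie at 3439.9 and 6456.

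In WT, 1 of the 9 genes tested (Birc3) was called between FO and MZ, where 12.0% of all genes tested were called, and in cKO 1 of 9 (Tnfrsf13c), where 13.7% were. Over both genotypes 0 of 9 were called, where 18.4% of all genes were, and 6 of 9 had an unadjusted p under 0.05, as did 44.1% of all genes. By the adjusted p alone the counts were 1 of 9 in WT (16.9% of all genes), 3 of 9 in cKO (19.6%) and 6 of 9 over both genotypes (33.4%). Those 6 were Birc3 (log2 difference 0.58, 1.49-fold), Tnfrsf13c (0.52), Traf3 (0.41), Relb (0.33) and Nfkb2 (0.29), higher in FO, and Cd40, higher in MZ. The median log2 difference of the 9 genes was 0.25 in WT and 0.34 in cKO, against 0.0048 and 0.0047 over all genes tested. Both FO libraries lay above both MZ libraries for 6 of 9 genes in WT and 6 of 9 in cKO, as for 27.2% and 33.1% of all genes, and below them for 1 and 2 of 9, as for 28.2% and 32.0% of all genes. DESeq2 called 1, 1 and 0 of the genes in WT, in cKO and over both genotypes (12.6%, 13.3% and 15.7% of all genes), and edgeR also called 1, 1 and 0 (12.0%, 13.5% and 18.5%).

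**Figure D3:**
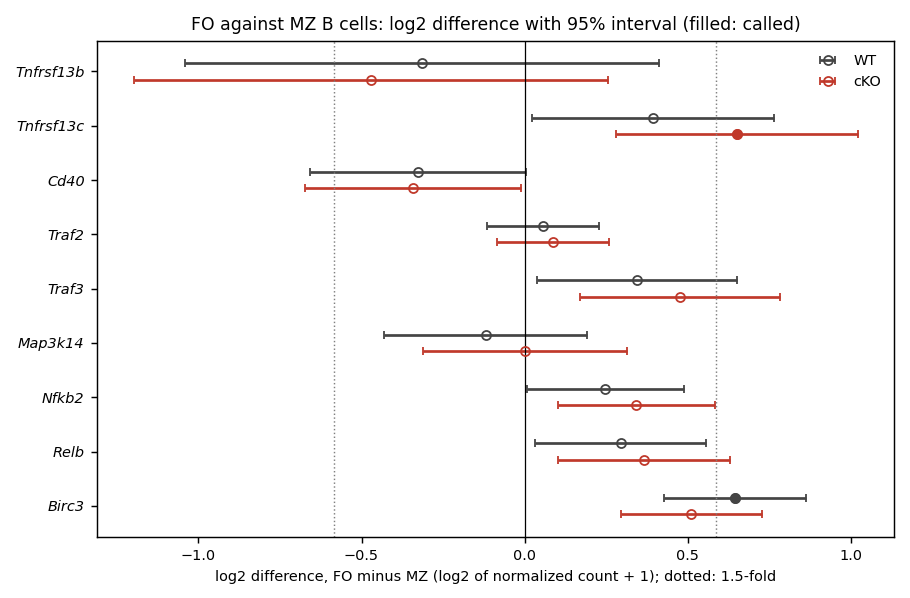
Log2 differences, FO minus MZ, of the 9 genes tested, with 95% intervals, in WT (grey) and cKO (red), with filled points for called genes and dotted lines at 1.5-fold. Only Birc3 in WT (0.64) and Tnfrsf13c in cKO (0.65) are filled, and the interval of Tnfrsf13b is the widest.

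Between cKO and WT, 0 of the 9 genes were called by limma in FO, in MZ, over both subsets or in the interaction, where 0.0677%, 0.0339%, 0.108% and 0% of all genes were. DESeq2 (0.112%, 0.300%, 0.429% and 0% of all genes) and edgeR (0.0608%, 0.0270%, 0.108% and 0%) also called 0 of them. At an unadjusted p under 0.05 limma gave 0 genes in FO, 2 in MZ, 2 over both subsets and 0 in the interaction, where 2.59%, 4.04%, 6.63% and 0.637% of all genes had one. The 2 were Tnfrsf13c and Birc3 in each case. Tnfrsf13c had a log2 difference of -0.30 in FO (95% interval -0.67 to 0.067), where the groups did not overlap and 13.1% of all genes had cKO below WT in this way, and of -0.56 in MZ (95% interval -0.93 to -0.19, limma adjusted p = 0.988). Over both subsets it was -0.43 (limma adjusted p = 0.534, DESeq2 adjusted p = 0.0385), under 1.5-fold. The paper names Tnfrsf13c among the genes lower in cKO than in WT MZ B cells, by DESeq2 at 1.5-fold and an FDR of 0.05. The DESeq2 fit here took all 8 libraries together and did not call it in MZ, and why the calls differ was not tested. The paper also cultured total splenic B cells with and without added BAFF, and reports similar viability for WT, heterozygous and cKO mice. Birc3 was 0.22 in MZ (95% interval 0.0084 to 0.44, limma adjusted p = 0.998) and 0.090 in FO (95% interval -0.13 to 0.31).

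In MZ both cKO libraries lay below both WT libraries for Tnfrsf13c and Traf2 and above them for Birc3, as for 18.7% and 15.8% of all genes, and in FO 0 of the 9 genes had both cKO libraries above, against 10.9% of all genes. For Traf2, Traf3, Map3k14, Nfkb2, Relb, Birc3 and Cd40 the 95% intervals of the difference between cKO and WT lay within 1.5-fold in both subsets, and the widest was that of Cd40 (-0.28 to 0.38 in FO and -0.27 to 0.39 in MZ). The interval of Tnfrsf13b was -0.94 to 0.52 in FO and -0.78 to 0.67 in MZ, which leaves differences over 1.5-fold undetectable with these libraries. Sex-linked transcripts moved with genotype as given above, and granulocyte markers were high in cKO MZ replicate 1. Their part in these values was not tested. Without cKO MZ replicate 1 and the other libraries in turn, the difference of Tnfrsf13c in MZ ran from -0.67 to -0.46.

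**Figure D4:**
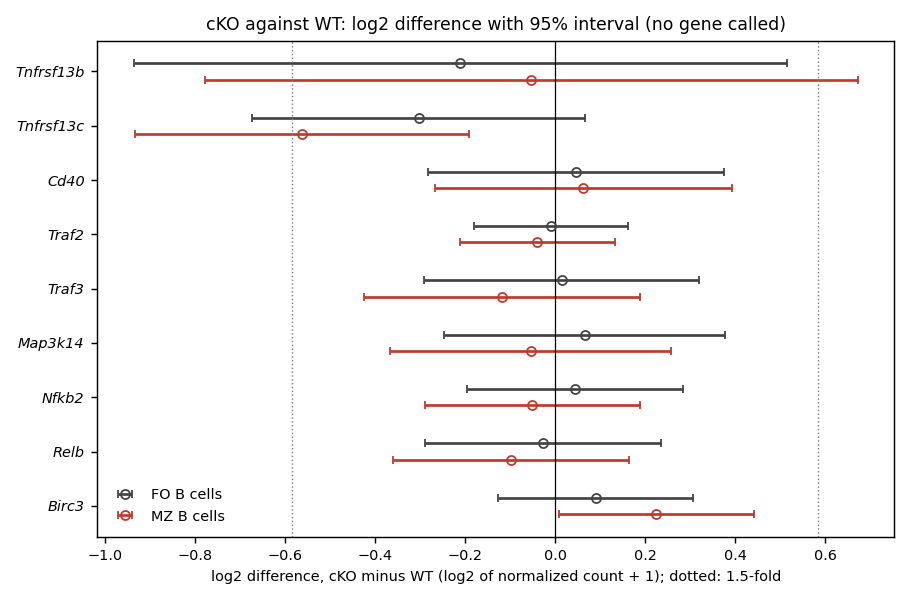
Log2 differences, cKO minus WT, of the 9 genes tested, with 95% intervals, in FO (grey) and MZ (red) B cells, with dotted lines at 1.5-fold. No gene is called, and Tnfrsf13c in MZ (-0.56) lies farthest from 0.

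The other genes of the pathway were counted by list. Of 38 genes in 5 lists, 32 passed the filter. The 3 ligands (Tnfsf13b, which encodes BAFF, Tnfsf13, which encodes APRIL, and Cd40lg) did not, and none had more than 9.06 normalized counts in a library. Between FO and MZ in WT, 4 of 32 were higher in FO and 7 lower, in cKO 4 and 4, and over both genotypes 4 and 8. In each case the higher genes include Fcer2a and the lower genes include Cr2, which encode the antigens of the sort. Of all genes tested, 4.62% were called higher in FO and 7.41% lower in WT, 5.54% and 8.18% in cKO, and 7.45% and 10.9% over both genotypes. The median log2 difference of the 32 was 0.033 in WT and 0.069 in cKO.

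Among 3 other receptors tested, Tnfrsf12a, the receptor of TWEAK, had log2 differences of 1.26 in WT and 1.68 in cKO, higher in FO (limma adjusted p = 0.0332 and 0.00981), from normalized counts of 258 and 155 for WT FO and 100.2 and 68.8 for WT MZ. Tnfrsf1b, which encodes a TNF receptor, and Cd27 were not called. Of 6 other TRAF and IAP adaptors, Traf1, an NF-kB target that binds TRAF2, was lower in FO in both genotypes (log2 differences -1.37 in WT and -1.34 in cKO, limma adjusted p = 0.00197 and 0.00189). It gave normalized counts of 1948 and 1448 for WT FO, 4884 and 3851 for WT MZ, 1701 and 1967 for cKO FO and 4376 and 4877 for cKO MZ. Traf4 was called over both genotypes (-0.62, limma adjusted p = 0.0459). Birc2, which encodes cIAP1, the close relative of Birc3, was not called, at 0.11 in WT and 0.17 in cKO.

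Of 10 kinases and ubiquitin regulators, Peli1, a ubiquitin ligase reported to act on NIK, was called, with normalized counts of 3209 and 2545 for WT FO, 1576 and 1707 for WT MZ, 3188 and 2463 for cKO FO and 1409 and 1634 for cKO MZ. Its log2 difference was 0.80 in WT (limma adjusted p = 0.0136) and reached 0.88 in cKO (limma adjusted p = 0.0082). Chuk, which encodes the kinase IKKa that acts on p100, was at -0.10 in WT and -0.11 in cKO, and was not called. Tnfaip3, which encodes A20, gave normalized counts of 11575 and 4412 for WT FO and 10523 and 4022 for WT MZ, farther apart within a group than the means of the groups, and was not called. In both WT subsets the higher library was replicate 1, and whether same-numbered libraries share an origin was not tested.

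Of 13 target genes tested, 2 were higher and 6 lower in FO in WT, where 4.62% of all genes were called higher and 7.41% lower. Cr2 (CD21) and Fcer2a (CD23) were the antigens of the sort, so their values of -1.80 and 2.75 in WT describe the gates. Icosl, the ligand of ICOS, was higher in FO by 0.68 in WT and 0.74 in cKO. The lower ones in WT were Cr2, Bcl2a1b, a survival gene of the Bcl2 family (-1.37), Cd80 (-2.01) and Cd86 (-0.90), the costimulatory ligands of T cells, Icam1, an adhesion molecule (-0.66), and Ebi3, a cytokine subunit (-0.85). In cKO, Cr2, Bcl2a1b (-1.52) and Cd80 (-1.98) were called, and Cd86 (-0.57, limma adjusted p = 0.076), Icam1 (-0.54, limma adjusted p = 0.0522) and Ebi3 (-0.74, limma adjusted p = 0.0692) were not. Dendritic cell markers were also lower in FO, as given above, and their part in these values was not tested. Between cKO and WT, 0 of the 32 genes were called in either subset, and at an unadjusted p under 0.05 limma gave 0 in FO and 3 in MZ (2.59% and 4.04% of all genes), while DESeq2 and edgeR called 0.

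**Figure D5:**
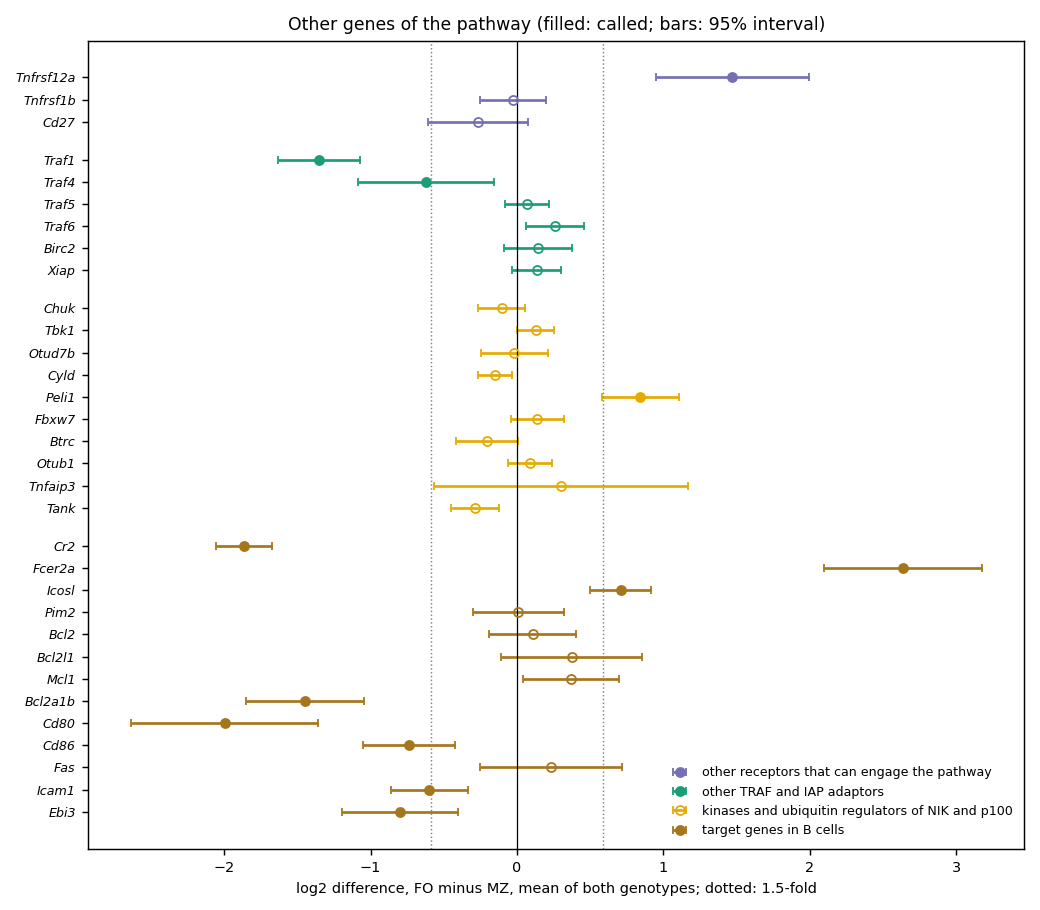
Log2 differences, FO minus MZ over both genotypes, of the 32 other pathway genes tested, with 95% intervals, coloured by list, filled where called, with dotted lines at 1.5-fold. Tnfrsf12a, Peli1, Fcer2a and Icosl lie to the right, and Traf1, Traf4, Cr2, Bcl2a1b, Cd80, Cd86, Icam1 and Ebi3 to the left.

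For both genes called between FO and MZ, the genes with the most similar pattern over the 8 libraries were sought by the root mean square difference of centred log2 values. Eif4ebp1 (0.0526), Kctd10 (0.0572) and Fam76b (0.0692) were nearest to Birc3, and Gm9821 (0.110), Arhgap26 (0.125) and Unc13a (0.127) were nearest to Tnfrsf13c.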

How the data were processed

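The 8 RNA-seq libraries (WT and cKO mice, FO and MZ subsets) were analysed, 2 in each of 4 groups taken from the labels. The authors depleted ribosomal RNA, sequenced 50 bp single-end reads, aligned them with HISAT2 to mm10 and normalized gene counts with DESeq2, and the submitters' processing notes name both featureCounts and HTSeq. Versions are not given in the sources used here. The deposited signal is a table of normalized counts, reads divided by DESeq2 size factors. Multiplied back by the size factors, 100% of the values were whole reads (tolerance 0.01 read). Size factors scale out differences in total RNA.

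Log2(normalized count + 1) was modelled in R 4.3.3 with limma 3.58.1 (eBayes with trend) for genes with a mean of at least 10. Genes were called at an adjusted p of at most 0.05 and 1.5-fold, and interactions by the adjusted p alone. Alternatives were a pseudocount of 0.5, no filter, quantile normalization, a block for the replicate number, a fit without the libraries not compared, DESeq2 1.42.0 and edgeR 4.0.16 (quasi-likelihood) on recovered reads, no fold cutoff, and each library left out. A block with crossed numbers and a block within each genotype were added after the data were seen. On simulated data, limma, DESeq2 and edgeR were checked for FO against MZ in WT only. Coordinates are from GENCODE M21 (27347 identifiers matched), promoters from RefSeq.

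The members and lists were chosen with earlier results of these data known. The named genes are the members, pathway genes called in a comparison or described by role, Gtf2i, Xist, Ddx3y, and the 3 nearest genes of each member called between FO and MZ. Results for some genes of the lists are left out. The 8 ATAC-seq samples were not analysed here.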

Additional observations from a re-analysis of the deposited data

How the results depend on the processing

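The counts of members called between FO and MZ were 1 in WT and 1 in cKO, and quantile normalization gave 0 and 0 (Birc3 at 0.53 and Tnfrsf13c at 0.51), without moving the median of all genes by over 0.1. Without a fold cutoff the count was 3 in cKO and 6 over both genotypes. With each library left out in turn the count ran from 1 to 1 in WT, 0 to 1 in cKO and 0 to 2 over both genotypes, with Tnfrsf13c in place of Birc3 in WT without WT FO replicate 1, and where an arm kept 1 library that library was assumed to vary like the other groups. The cause of these changes was not tested. The counts between cKO and WT and in the interaction were 0 under every alternative run. Over all genes, the count called between FO and MZ was 1776 in WT and 1014 in a fit of only the libraries compared, and over both genotypes 2711 and 4926 without a fold cutoff. Between cKO and WT it was 10 in FO, 5 in MZ and 16 over both subsets, DESeq2 gave 24, 48 and 71, the crossed block 16, 12 and 37, and the fit of only the libraries compared gave 4 in FO.

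Log2 differences near 0 changed sign. Map3k14 between FO and MZ in cKO was -0.13 after quantile normalization, -0.0048 by DESeq2 and -0.0095 by edgeR. After quantile normalization the differences between cKO and WT were 0.0055 (Traf2) and 0.0013 (Relb) in FO, 0.0061 (Tnfrsf13b), 0.0048 (Traf2), 0.0068 (Map3k14) and 0.022 (Nfkb2) in MZ, and 0.0051 (Traf2) and 0.044 (Nfkb2) over both subsets, where edgeR gave 0.0045 for Nfkb2. With each library left out in turn, the ranges that crossed 0 were -0.77 to 0.14 (Tnfrsf13b) between FO and MZ in WT, -0.15 to 0.15 (Map3k14) between FO and MZ in cKO and -0.14 to 0.016 (Map3k14) between FO and MZ over both genotypes. They were -0.16 to 0.26 (Cd40), -0.024 to 0.0049 (Traf2), -0.12 to 0.071 (Relb), -0.67 to 0.24 (Tnfrsf13b), -0.14 to 0.17 (Traf3), -0.026 to 0.16 (Map3k14), -0.014 to 0.19 (Birc3) and -0.0024 to 0.090 (Nfkb2) between cKO and WT in FO. They were -0.21 to 0.097 (Map3k14), -0.19 to 0.084 (Nfkb2), -0.23 to 0.028 (Relb) and -0.29 to 0.18 (Tnfrsf13b) between cKO and WT in MZ. They were -0.13 to 0.023 (Traf3), -0.36 to 0.095 (Tnfrsf13b), -0.070 to 0.081 (Map3k14), -0.071 to 0.064 (Nfkb2), -0.13 to 0.00060 (Relb) and -0.051 to 0.16 (Cd40) between cKO and WT over both subsets. They were -0.61 to 0.30 (Tnfrsf13b), -0.23 to 0.19 (Cd40), -0.018 to 0.28 (Traf3), -0.055 to 0.20 (Relb), -0.040 to 0.23 (Nfkb2) and -0.031 to 0.27 (Map3k14) in the interaction.

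Nothing in the labels says that a replicate number marks a shared mouse or day, and the main fit did not pair the libraries. Only FO and MZ of the same genotype could come from the same mouse. Within cKO, FO replicate 1 held both Xist and Ddx3y, while Xist was low in both MZ libraries, as given above. That FO library thus did not share a single mouse as its source with either cKO MZ library. For these the correlation of same-numbered deviations was 0.59 in WT and -0.0015 in cKO. Between WT and cKO groups it ran from -0.30 (WT MZ and cKO MZ) to 0.29 (WT FO and cKO FO). Whether same-numbered WT libraries share an origin was not tested, and if they do, the main fit ignored it. With the replicate number as a block the counts of members called were 1 in WT, 1 in cKO and 0 in the other 5 comparisons, and the block changed no call of a member. With the numbers of cKO MZ crossed, an alternative added after the data were seen, the counts were also 1, 1 and 0. A block within each genotype, fitted to its 4 libraries alone (residual degrees of freedom 1) and also added after the data were seen, again called 1 member in WT and 1 in cKO. Over all genes it called 2728 in WT against 1776 without it, and by the adjusted p alone 7 of 9 members in WT (37.3% of all genes) and 4 of 9 in cKO (21.2%). By number, Tnfrsf13b and Map3k14 were lower in FO in both WT pairs.

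Depth limits Tnfrsf17 and the ligands, and for the other genes the number of libraries limits the precision.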

Other observations

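The 2 receptors for BAFF were compared by their ratio in each library. The ratio of Tnfrsf13c (BAFF receptor) to Tnfrsf13b (TACI), both per kilobase, was 2.98 and 2.22 for WT FO, 1.73 and 1.44 for WT MZ, 2.91 and 2.001 for cKO FO and 1.05 and 1.17 for cKO MZ. Each FO library lay above each MZ library. The ratio was chosen after the values of both genes were seen and was not tested. The ratio of Nfkb2 to Relb varied less, from 2.41 to 2.82 over the 8 libraries, without a split by subset, and that of Birc3 to its relative Birc2 was 2.33 to 2.71 in the FO libraries and 1.63 to 2.11 in the MZ libraries. Traf3 to Traf2 was 1.65 to 1.99 in the FO libraries and 1.34 to 1.58 in the MZ libraries. These ratios were also chosen after the values were seen and were not tested. Birc3 was already called in WT and Birc2 was not, so the split of their ratio restates the difference of Birc3.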
